A study of Mus musculus with 6 samples.

Results

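The genes described here encode heat shock proteins and chaperonins of the mouse oocyte, with their J-domain, Bag and prefoldin partners. They were chosen by name. A probe was taken when its single gene symbol was that of a heat shock protein (Hspa, Hspb, Hspd, Hspe, Hsph or Hsp90), a J-domain protein (Dnaja, Dnajb or Dnajc), a subunit of the chaperonin Cct (including Tcp1), a heat shock factor (Hsf1 or Hsf2), a Bag co-chaperone or a prefoldin subunit. This gave 74 probes for 71 genes, out of 33012 probes and 13840 genes with a symbol of their own on the array. Probes under the symbols Hsf1, Hsp90aa1, Hsp90ab1, Hspa8 and Hspa1b were not found in the annotation used, so these genes are not analysed here. Each array measured the RNA of 1 oocyte. The mutant group held 3 mature oocytes labelled as Ago2 knockout, from [Ago2F/F, Zp3-Cre] conditional knockout females, in which the promoter of the zona pellucida gene Zp3 drives Cre in the growing oocyte, and where deletion of the allele, as genotyped, reached nearly all but not all oocytes. The control group held 3 wild-type germinal vesicle (GV) oocytes of adult females, which the labels describe as taken from oviducts and freed of cumulus cells with hyaluronidase. The paper's methods give this same collection, also from adults, for ovulated metaphase II oocytes, without naming a genotype. The stage of the control oocytes is therefore given as labelled and was not checked. A GV oocyte is fully grown and still arrested in meiotic prophase, while a mature oocyte has resumed meiosis. Genotype and the stage as labelled thus cannot be told apart in any difference given here. Whether the oocytes came from separate animals is not stated, so the p-values cover no more than the variation among these 6 oocytes, which may be technical.

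Chaperones hold unfolded proteins and help them reach or regain their shape. Hsp70 proteins bind exposed peptide stretches in a cycle driven by ATP, J-domain proteins bring them their clients and start that cycle, and Hsp110 and Bag proteins release the nucleotide and so the client. The chaperonins are barrels that enclose a protein while it folds: Cct, built of related subunits, folds actin and tubulin in the cytosol and receives them from prefoldin, while Hspd1 with its lid Hspe1 works in the mitochondrial matrix. The oocyte makes its meiotic spindle and its actin cortex from these clients, and it stores much of the mRNA for them while it grows.

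Many heat shock genes are switched on through heat shock elements, arrays of GAA and its reverse complement TTC that heat shock factors bind. The elements found before some of the tested genes are shown because they match this pattern, and no classical heat shock promoter was compared. RefSeq promoters of build GRCm38.p6 matched 61 of the 71 genes with 82 promoters, and the 250 bases before each start were searched on both strands for GAANNTTC and TTCNNGAA, which are the same on both strands and overlap within longer arrays. Of the members' promoters 17.1% held at least 1 of them, as did 12.8% of all 32851 promoters. A longer array, with 3 such units in alternating direction and 2 bases between them, stood in 4.88% of the members' promoters and in 0.466% of all promoters. The 4 promoters behind the first share hold only 2 separate arrays, since Dnajb6 has 2 overlapping promoters and Hspd1 and Hspe1 share theirs. Capitals mark the elements in these lines, read 5′ to 3′ on the strand of the gene.
Hspe1, chr1:55088053-55088082, plus strand: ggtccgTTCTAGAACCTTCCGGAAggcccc
Hspd1, chr1:55088053-55088082, minus strand: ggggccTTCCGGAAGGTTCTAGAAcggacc
Dnajb6, chr5:29735844-29735872, plus strand: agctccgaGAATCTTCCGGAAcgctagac
Hsph1, chr5:149636354-149636377, minus strand: tagaatctTTCTCGAAggctcgag
Cct5, chr15:31601865-31601888, minus strand: gcggccgaTTCCAGAAgctactct
Cct2, chr10:117063402-117063425, minus strand: caagtgaaGAAGTTTCtagcagga
Dnajb4, chr3:152193846-152193867, minus strand: gttcgctgTTCTAGAAagtaca
Dnajc27, chr12:4082353-4082376, plus strand: ccatcggtGAAGATTCcaggaaaa
Hspb6, chr7:30553173-30553196, plus strand: taattattGAAGTTTCtaaataag
The genes of the mitochondrial chaperonin, Hspd1 and Hspe1, are divergent neighbours and share 1 array, read from opposite strands. Genes with an element included some that were lower in the mutant oocytes (Cct2, Cct5, Dnajb6, Hspb6), some that were higher (Dnajb4, Dnajc27) and some that were not called (Hspd1, Hspe1, Hsph1). A match says only that these letters are in the window. The CCAAT box was in 36.6% of the members' promoters and in 33.8% of all promoters, and TATAAA in 3.66% and 12.4%.

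Fewer of the 71 genes were detected in the mutant oocytes. With detection set at a signal 3 or more times the noise, the Ago2-deficient oocytes showed 16, 22 and 25 of them and the GV oocytes 42, 40 and 39. As shares these were 22.5%, 31.0% and 35.2% against 59.2%, 56.3% and 54.9%, and of the other 13769 genes with a symbol 16.8% to 25.0% were detected on the Ago2-deficient arrays and 41.4% to 43.6% on the GV arrays. The lower shares were thus seen in other genes too. Median signals of undetected probes were 145 to 231 on the Ago2-deficient arrays and 70.8 to 83.3 on the GV arrays, and the part of this higher floor in the lower shares was not tested. All 14 oocyte markers on the array were detected in each GV oocyte and 10 to 11 in each Ago2-deficient oocyte, and 12 of them were lower and none higher. Of 13 markers of cumulus and granulosa cells, 2 to 4 were detected on each array of either group, with Fshr and Amh detected on none, Btc and Ereg called higher and Inha and Nr5a2 lower. Their summed quantile-normalized level was 13.79 to 15.30 (log2) in the Ago2-deficient and 12.10 to 12.55 in the GV oocytes, with Btc at 13.16 to 15.09 against 7.72 to 8.02, and its part in the differences below was not tested. The Ago2 probe passed the detection limit in 1 GV oocyte and no mutant oocyte, with overlapping levels (6.49 to 6.94 and 6.25 to 7.88), and because no source used here places that probe against the deleted exons, the genotype is not checked by it.

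**Figure D1:**
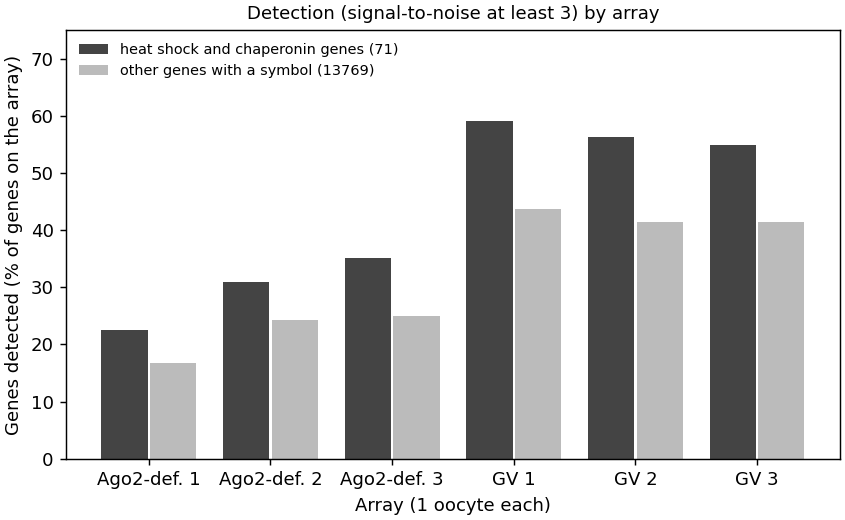
Share of genes with a signal of 3 or more times the noise (vertical axis, % of genes on the array) on each array of 1 oocyte; dark bars are the 71 heat shock and chaperonin genes and light bars the 13769 other genes with a symbol. Dark bars reach 22.5% to 35.2% in the Ago2-deficient and 54.9% to 59.2% in the GV oocytes, and the light bars follow the same order of groups.

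Of the 71 genes, 37 were tested, that is, detected in every oocyte of a group. The authors' quantile-normalized log2 values of the whole table were fitted with limma. Calls required a fold over 2 and, after adjustment over all probes tested, p under 0.05. Among the 37, 5 were higher and 19 lower in the Ago2-deficient mature oocytes and 13 were not called. Among all 7915 genes tested 62.2% were called, 17.4% as higher and 44.8% as lower, and among the 4568 of these with a symbol 62.7%, so the share of called members (24 of 37) was close to that of all genes. In 27 members the ranges of the groups were separate, 7 with the mutant oocytes above and 20 with them below, as was so for 70.4% of all tested genes (20.2% higher and 50.3% lower). The median log2 difference of the 37 was -2.39, or -2.08 with genes undetected in all oocytes of a group at their bound, beside -1.39 for all tested genes. The counts of calls, their p-values and these medians all rest in part on the filter. Of the 37, 23 passed it through the GV arrays alone and 1 (Dnajc27) through the Ago2-deficient arrays alone. Among all 7915 genes tested, 5171 were detected on all GV arrays but not on all Ago2-deficient arrays. The 13 members detected on all 6 arrays divided into 3 higher (Pfdn1, Dnajc8, Dnajc1), 6 lower (Cct2, Cct3, Cct5, Dnajb1, Dnajb6, Dnajb11) and 4 not called, where 63.8% of all genes so detected were called, 43.5% higher and 20.2% lower. Their median was -0.61, and that of all genes detected on all 6 arrays was 0.83. For a gene detected in no oocyte of a group the fold is a bound, written "at least", which sets the mean of the detected group against the probe's own signal on the other arrays, or against their lowest detected signal where that was higher. These bounds are made from means and carry their error, so "at least" refers to the undetected signal and sets no limit on the variation among oocytes. For Cct8 the bound equals the plain log2 difference of -4.09 (SE 0.78). Such bounds hold on the quantile-normalized values only, and other scalings, described below, gave smaller or larger differences. Cct8, with a log2 bound of -4.09, was at -2.53 with cyclic loess and -6.42 with a common median for all arrays. Dnajc27, with a log2 bound of 5.46, was at 3.90 with the common median and 6.18 with cyclic loess.

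**Figure D2:**
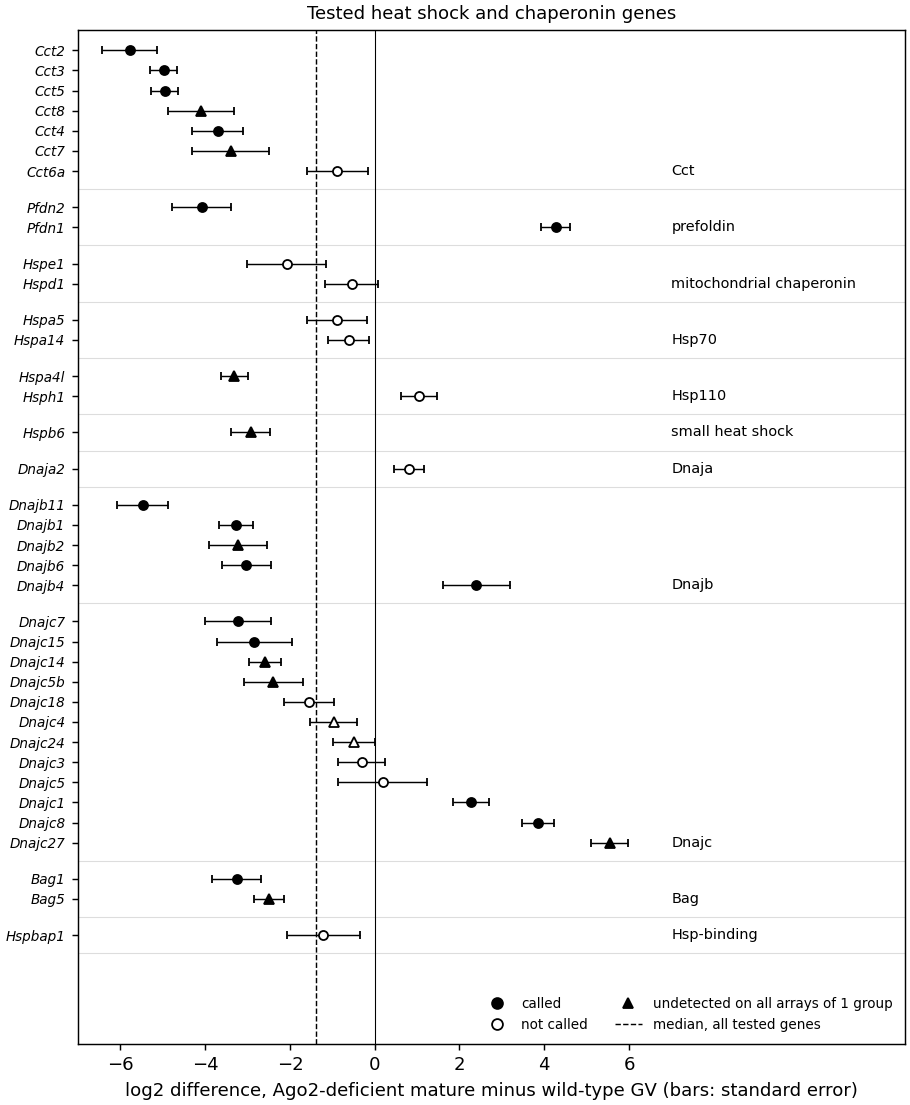
Log2 difference of the 37 tested genes by family, as the mutant mean less the GV mean (horizontal axis, bars show the standard error by limma). Called genes are filled and the others open, triangles mark genes undetected on all arrays of 1 group (not placed at their bound), and a dashed line stands at -1.39, the median over every gene tested; on these quantile-normalized values Cct2 lies farthest left at -5.78 and Dnajc27 farthest right at 5.54.

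Most tested subunits of the cytosolic chaperonin were lower in the mutant oocytes. Of its 9 genes on the array 7 were tested, and 6 were lower and none was higher, beside 44.8% and 17.4% of all tested genes. Of the 7, 4 passed the filter through the GV arrays alone. Cct5 had quantile-normalized log2 signals of 14.30, 14.53 and 14.29 in the Ago2-deficient against 19.03, 19.43 and 19.52 in the GV oocytes. The groups lay far apart, with both spreads small, and the log2 difference was -4.95 (standard error, SE, 0.32, adjusted p = 0.000121 by limma). Cct3 gave 13.31, 13.32 and 13.70 against 18.21, 18.66 and 18.39, equally far apart, with a log2 difference of -4.98 and the same standard error and adjusted p. Cct2 gave 8.29, 10.45 and 10.53 against 15.77, 15.33 and 15.52. Its difference was -5.78 (SE 0.65, adjusted p = 0.000496 by limma), and one mutant oocyte, replicate 1, lay below the other two, so that the difference was -5.05 without it. These 3 subunits were detected in every oocyte of both groups.

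For the other subunits detection in the mutant oocytes was partial or absent. Cct8 read 7.40, 9.74 and 10.10 in the Ago2-deficient oocytes (where it was detected in none) against 13.93, 12.98 and 12.60 in the GV oocytes, which makes it at least 17.1-fold lower (adjusted p = 0.00405 by limma) and at least 9.52-fold lower without Ago2-deficient replicate 1. Cct4, detected in 2 mutant oocytes, differed by -3.71 (SE 0.61), and by -4.30 without Ago2-deficient replicate 3. Cct7 was at least 10.5-fold lower with an adjusted p = 0.0154 from limma. Its bound went from 6.94 to 22.5 as Ago2-deficient replicate 1 or 3 was left out, and its call was lost without GV replicate 1, 2 or 3 (adjusted p = 0.0519, 0.0512 and 0.0513). Cct6a read 9.43, 9.70 and 7.31 against 9.86, 10.25 and 8.98, with overlapping groups, and the difference of -0.88 was not called (adjusted p = 0.315), though it was with a common median for all arrays (-2.57) and not with cyclic loess (0.69). Tcp1, the first subunit of the ring, was detected in 1 GV oocyte only (6.63, 6.19 and 7.10 against 8.34, 6.77 and 7.68) and was not tested, and Cct6b, known from testis, was detected on no array.

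**Figure D3:**
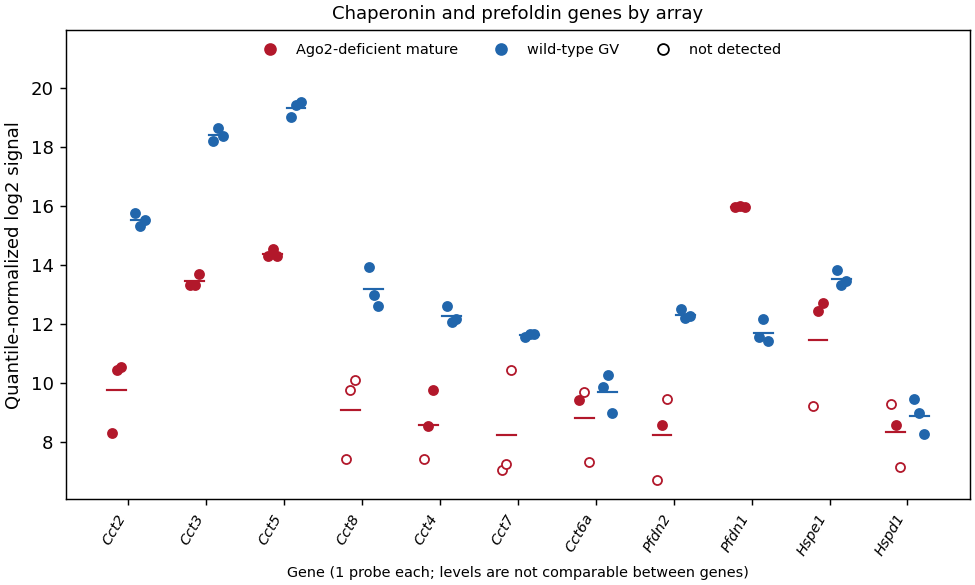
Quantile-normalized log2 signal (vertical axis) of the tested chaperonin and prefoldin genes in single oocytes; red points are the 3 Ago2-deficient mature and blue points the 3 wild-type GV arrays, open points were not detected, and short lines are group means. Blue points lie above red ones for 6 of the 7 Cct genes and for Pfdn2, and below them for Pfdn1.

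Prefoldin passes newly made actin and tubulin to Cct, and its subunits moved in opposite directions. Pfdn1 read 15.97, 15.99 and 15.98 in the Ago2-deficient against 11.55, 12.16 and 11.41 in the GV oocytes. The mutant values were almost equal, with an SD of 0.0085, and the log2 difference was 4.27 (SE 0.34, adjusted p = 0.000189 by limma). Its signal over noise was lower in the mutant oocytes, at 23.12 to 31.18 against 42.34 to 49.83. Pfdn2 went the other way with 6.70, 8.57 and 9.46 against 12.49, 12.19 and 12.27, detected in 1 mutant oocyte. Its difference was -4.08 (SE 0.70, adjusted p = 0.00255 by limma), -3.31 without Ago2-deficient replicate 1 and -4.69 without replicate 3.

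Genes of the mitochondrial chaperonin were not called. Hspe1, the lid, read 9.22, 12.43 and 12.72 in the Ago2-deficient against 13.83, 13.32 and 13.46 in the GV oocytes. The groups did not overlap, but mutant replicate 1 lay far below the other two, and the difference of -2.08 had an adjusted p of 0.0905 from limma. Under the other 4 scalings described below, and without Ago2-deficient replicate 3, it was called, in the last case at -2.71 (adjusted p = 0.0477). Without replicate 1 the difference was -0.96, under the fold limit, and was not called. Hspd1, the barrel, has 3 probes, and they disagreed. The tested probe gave 9.29, 8.57 and 7.16 against 9.45, 8.96 and 8.25, a difference of -0.54 that was not called (adjusted p = 0.473) and that was 0.04 without Ago2-deficient replicate 3. Another read 7.68, 9.40 and 9.35 against 7.40, 6.95 and 6.52, detected in 2 mutant oocytes and in no GV oocyte, and was not tested, as the third, detected in 1 GV oocyte, was not. No direction is therefore given for Hspd1.

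Among Hsp70 genes 2 of 8 were tested, and neither was called on the quantile-normalized values. Hspa14, a ribosome-bound Hsp70, read 12.01, 13.07 and 13.67 against 13.44, 13.53 and 13.62, all detected, with overlapping groups and a difference of -0.61 (adjusted p = 0.292). It was called lower without scaling (-2.76), with a common median for all arrays (-3.86) and with centred arrays, each set to its mean over the probes that all 6 detected (-1.65), though not with cyclic loess (-0.41). Hspa5, the main Hsp70 of the endoplasmic reticulum (ER), read 9.06, 10.14 and 11.64 against 11.89, 10.70 and 10.94. Its groups overlapped through mutant replicate 3, and the difference of -0.89 (adjusted p = 0.304) was called at -1.57 without that oocyte (adjusted p = 0.0466), at -2.36 without scaling and at -3.46 with the common median, while cyclic loess gave 0.50. Hspa9, the mitochondrial Hsp70, was detected in 1 oocyte of each group, and the other 5 on none. Hsp90b1, the ER member of the Hsp90 family, was detected in 2 GV oocytes only (7.78, 7.96 and 7.58 against 7.57, 7.93 and 8.42), its groups overlapped, and it was not tested.

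The Hsp110 genes, which exchange the nucleotide of Hsp70, had 2 of 3 tested and 1 called, as lower. Hspa4l read 6.53, 6.68 and 6.81 in the Ago2-deficient oocytes (all undetected) against 10.28, 9.74 and 9.96 in the GV oocytes, and it was at least 9.97-fold lower (adjusted p = 0.00030 by limma). Hsph1, detected on all arrays, gave 10.78, 11.35 and 10.21 against 9.45, 9.61 and 10.14. Every mutant oocyte lay above every GV oocyte, narrowly in replicate 3, and the difference of 1.05 (SE 0.42, adjusted p = 0.0648) was not called. Its direction depended on the scaling: Hsph1 was called higher with cyclic loess (2.37, adjusted p = 0.00205) and without Ago2-deficient replicate 3 (1.33, adjusted p = 0.0268), and lower with the common median (-1.40, adjusted p = 0.0297). Hspa4 was detected on no array. Of 5 small heat shock genes, whose proteins keep unfolding proteins soluble, Hspb6 alone was tested. It read 7.02, 6.68 and 5.52, undetected, against 9.22, 9.26 and 9.52, and was at least 6.34-fold lower (adjusted p = 0.00182 by limma), but was not called with centred arrays (-1.55, adjusted p = 0.0896). The other 4, Hspb2, Hspb3, Hspb7 and Hspb8, were detected on no array.

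J-domain proteins are the largest family here, with 18 of 34 genes tested, of which 4 were higher and 8 lower, shares close to the 17.4% and 44.8% of all tested genes. In the Dnajb class 4 of 5 were lower. Dnajb11, the ER partner of Hspa5, read 9.58, 11.81 and 10.88 in the Ago2-deficient against 16.63, 15.99 and 16.05 in the GV oocytes. With all 6 oocytes above the detection limit, the log2 difference was -5.47 (SE 0.60, adjusted p = 0.000472 by limma), or -4.88 without Ago2-deficient replicate 1. Dnajb1, the Hsp40 induced by heat, read 10.01, 10.49 and 9.42 against 13.58, 13.10 and 13.04, a difference of -3.26 (SE 0.40, adjusted p = 0.000679 by limma). Dnajb6, which keeps polyglutamine proteins from aggregating and whose promoter holds the array of 3 units printed above, read 12.03, 12.73 and 13.53 against 16.71, 15.12 and 15.55. These groups did not overlap, and its difference was -3.03 (SE 0.58). Dnajb2 was undetected in the mutant oocytes and at least 7.05-fold lower, with 6.90, 7.74 and 5.09 against 9.84, 9.52 and 10.03.

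Dnajb4, a cytosolic J-domain protein, was the 1 higher gene of its class, and the weakest call among the 5 higher genes. It read 10.05, 12.58 and 13.02 against 9.75, 9.35 and 9.35, undetected in mutant replicate 1, and the difference was 2.40 (SE 0.78, adjusted p = 0.0336 by limma). Without that oocyte it was 3.32. Its call was lost without Ago2-deficient replicate 2 or 3 (adjusted p = 0.0946 and 0.0822) and without GV replicate 1, 2 or 3 (0.0792, 0.0968 and 0.096). In the Dnaja class, which holds the main partners of cytosolic Hsp70, Dnaja2 read 12.43, 12.48 and 12.04 against 11.97, 11.21 and 11.33. The mutant oocytes lay just above the GV oocytes and the difference of 0.82 was not called (adjusted p = 0.0853). Its direction depended on the scaling, with calls as higher with cyclic loess (1.38, adjusted p = 0.0179) and as lower without scaling (-1.37, adjusted p = 0.0482) and with the common median (-2.47, adjusted p = 0.000983). Dnaja4 was detected in 2 GV oocytes (6.42, 7.86 and 8.78 against 8.16, 8.08 and 10.07, overlapping) and Dnaja1 and Dnaja3 on no array. Of the other 6 Dnajb genes, 3 were detected in 1 GV oocyte each and 3 on no array.

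The Dnajc class, whose members share little besides the J domain, had members on both sides, with 3 higher, 4 lower and 5 not called of 12 tested. Of all tested genes 17.4% were higher and 44.8% lower. Through the GV arrays alone 8 of the 12 passed the filter, and through the Ago2-deficient arrays alone 1. Dnajc27, a Rab-like GTPase with a J domain, read 11.94, 12.97 and 12.16 in the Ago2-deficient oocytes and 6.44, 6.60 and 7.40, all undetected, in the GV oocytes. It was at least 44.2-fold higher (adjusted p = 0.000191 by limma). Dnajc8, a protein that binds splicing factors, read 13.39, 13.66 and 14.23 against 10.08, 10.06 and 9.59, a difference of 3.85 (SE 0.37, adjusted p = 0.000297 by limma). Dnajc1, an ER membrane protein, differed by 2.27 (SE 0.42, adjusted p = 0.00333 by limma), but by -0.94 with a common median for all arrays, with 14.70, 14.87 and 15.11 against 12.15, 12.36 and 13.34. The signal over noise of Dnajc1 was lower in the mutant oocytes (12.84 to 36.44 against 59.63 to 83.92). For these 3 genes every mutant oocyte read above every GV oocyte on the quantile-normalized scale.

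Lower members of the class were seen at or near the detection limit in the mutant oocytes. Dnajc7, which binds both Hsp70 and Hsp90, read 10.55, 8.15 and 7.61 against 11.61, 12.16 and 12.19. It was detected in mutant replicate 1 alone, and differed by -3.22 (adjusted p = 0.0104 by limma), or by -4.11 without that oocyte, and was not called with cyclic loess (-1.63, adjusted p = 0.0616). Dnajc14 was at least 5.88-fold lower, but was not called with centred arrays (-1.12, adjusted p = 0.0591). Dnajc5b, undetected in the mutant oocytes, was at least 4.0-fold lower, and at least 3.02-fold without Ago2-deficient replicate 1. Its call was lost with centred arrays (-1.02, adjusted p = 0.118) and without GV replicate 1, 2 or 3 (adjusted p = 0.0766, 0.0631 and 0.0596). Dnajc15, a J-domain protein of the inner mitochondrial membrane, read 6.94, 6.49 and 9.91 against 10.94, 10.34 and 10.56, a difference of -2.84 (adjusted p = 0.0295 by limma). It was -3.90 without Ago2-deficient replicate 3 and -2.19 without replicate 2, and the call was lost without Ago2-deficient replicate 1 or 2 (adjusted p = 0.0648 and 0.0804) and without GV replicate 1, 2 or 3 (0.096, 0.0706 and 0.079), and with cyclic loess (-0.99, adjusted p = 0.182).

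Of the members not called, Dnajc3, an ER inhibitor of the kinase Perk, was detected on all arrays with 10.72, 11.48 and 12.68 against 12.23, 11.55 and 12.02. Its groups overlapped and the difference of -0.31 (adjusted p = 0.649) became 0.15 without Ago2-deficient replicate 1. Dnajc4 gave 10.39, 8.70 and 8.94, all undetected, against 9.70, 10.76 and 10.46, and was called without Ago2-deficient replicate 1 (-1.48, adjusted p = 0.020). Dnajc18 at -1.54 was called without Ago2-deficient replicate 3 (-2.11, adjusted p = 0.0082), and Dnajc24 was at -0.48. Dnajc5, the cysteine string protein of secretory vesicles, has 2 probes that disagreed: the brighter differed by 0.19 (adjusted p = 0.885), and by -0.83 without Ago2-deficient replicate 3, while the other was at least 4.56-fold lower (adjusted p = 0.012), so no direction is given. Dnajc9, a histone chaperone, was detected in 1 mutant and 2 GV oocytes (7.94, 8.72 and 7.29 against 9.96, 9.17 and 7.85) and was not tested, and the other 6 Dnajc genes were detected on no array.

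**Figure D4:**
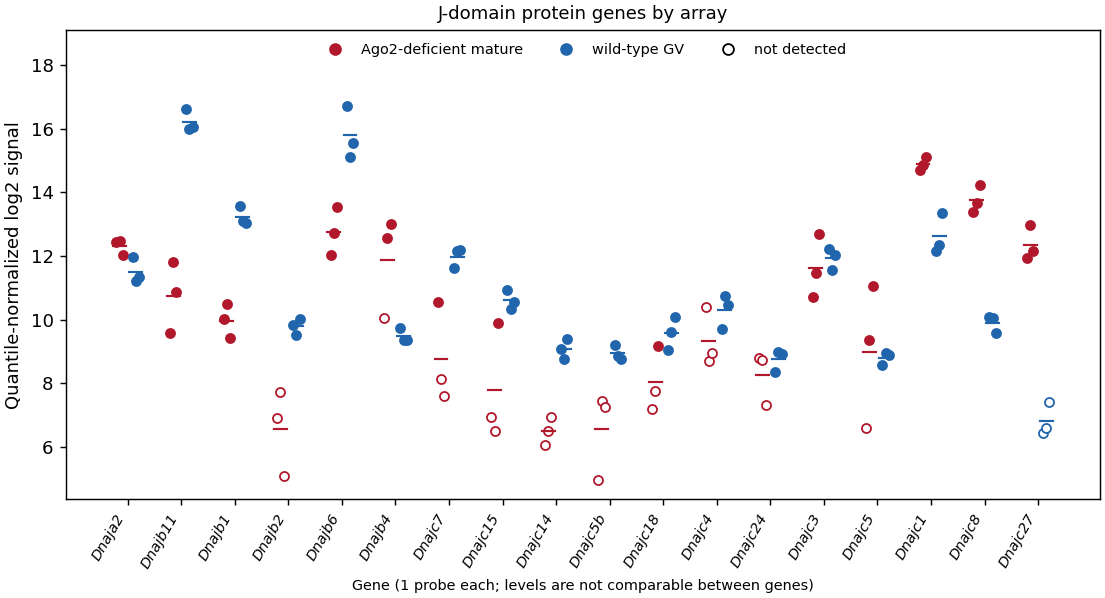
Quantile-normalized log2 signal (vertical axis) of the 18 tested J-domain genes in single oocytes; red points are Ago2-deficient mature and blue points wild-type GV arrays, open points were not detected, and short lines are group means. Blue lies above red for 8 genes: Dnajb11, Dnajb1, Dnajb2, Dnajb6, Dnajc7, Dnajc14, Dnajc15 and Dnajc5b. Red lies above blue for 5: Dnajb4, Dnajc8, Dnajc27, Dnajc1 and the uncalled Dnaja2. Of these, Dnajc1 turned to -0.94 and Dnaja2 to -2.47 with a common median for all arrays.

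Both Bag genes tested, of 4 on the array, were lower, as were 44.8% of all tested genes. Each passed the filter through the GV arrays alone. Bag1, which links Hsp70 to the proteasome, read 6.97, 6.53 and 8.59 in the Ago2-deficient against 10.82, 10.41 and 10.64 in the GV oocytes. Mutant replicate 3 alone was above the detection limit, and Bag1 differed by -3.26 (SE 0.57, adjusted p = 0.00285 by limma), or by -3.87 without that oocyte. Bag5 gave 6.66, 6.51 and 6.61, undetected, against 8.65, 9.09 and 9.51, and was at least 5.63-fold lower (adjusted p = 0.00112 by limma), but was not called with centred arrays (-0.99, adjusted p = 0.154). Bag2 and Bag3 were detected on no array. Hspbap1, which binds a small heat shock protein, read 7.91, 10.54 and 11.29 against 10.73, 11.33 and 11.32, and its difference of -1.21 was not called (adjusted p = 0.257) and was -0.21 without Ago2-deficient replicate 1. Hspbap1 was called lower without scaling (-2.53), with the common median (-3.63) and with centred arrays (-1.42), while cyclic loess gave 0.33. Hsf2, a heat shock factor active in meiosis and development, passed the detection limit in 2 GV oocytes and no mutant oocyte (6.36, 7.11 and 6.58 against 8.85, 8.10 and 5.96). The third GV oocyte lay under every mutant oocyte, so the groups overlapped, and Hsf2 was not tested. In all, 34 genes were not tested, and 25 of the 71 were detected on no array, with log2 values from 4.91 to 9.42.

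Other genes of protein folding were called in both directions. A list of 69 co-chaperones, ER and mitochondrial folding factors and chaperonin partners had 55 genes on the array, of which 28 were tested. Of these 7 were higher and 10 lower, beside 17.4% and 44.8% of all tested genes, and the median log2 difference was -0.35 beside -1.39. Among the 16 of them detected on all 6 arrays 7 were higher and 3 lower, shares close to the 43.5% and 20.2% of all genes so detected. Whether the list and the members differed was not tested. Of 14 Hsp90 and Hsp70 co-chaperones 6 were higher and 4 lower, and of 5 chaperonin and prefoldin partners none was higher and 4 were lower. These groups passed the filter in unlike ways. Of the 14 co-chaperones 10 were detected on all 6 arrays, while 4 of the 5 partners passed through the GV arrays alone. The part of this in the counts was not tested. Vbp1, the subunit of prefoldin known as Pfdn3, read 7.10, 10.28 and 10.88 against 12.86, 12.42 and 13.06, a difference of -3.36 (adjusted p = 0.0212 by limma). It was -2.20 without Ago2-deficient replicate 1 and -4.09 without replicate 3, and lost its call without GV replicate 1, 2 or 3 (adjusted p = 0.0692, 0.0534 and 0.0705). Uxt, a subunit of a prefoldin-like complex, was at least 13.1-fold lower, and at least 21.0-fold without Ago2-deficient replicate 3.

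Co-chaperones of the same complexes were found on either side. Stip1, which hands clients from Hsp70 to Hsp90, read 7.71, 7.75 and 6.96, undetected, against 12.35, 12.11 and 12.31, and was at least 27.5-fold lower (adjusted p = 0.000163 by limma). Chordc1, an Hsp90 partner, went the other way with 15.89, 16.30 and 15.52 against 11.58, 12.05 and 11.70, a difference of 4.13 (SE 0.35). Its signal over noise was lower in the mutant oocytes (34.57 to 41.8 against 43.1 to 49.41). Ttc1, a tetratricopeptide protein that binds Hsp70, differed by 6.71, and Sec63, the J-domain protein of the ER translocon, by 3.46. With a common median for all arrays Sec63 (0.51, adjusted p = 0.436) and Chordc1 (1.12, adjusted p = 0.0952) were not called, while Ttc1 was called under all 5 scalings. Ddit3, a transcription factor of ER stress, differed by -3.42 (-2.66 without Ago2-deficient replicate 1). Pdia4, an ER disulfide isomerase, was called at 2.13 (2.75 without Ago2-deficient replicate 1), but not without Ago2-deficient replicate 2 or 3 or GV replicate 1 or 3 (adjusted p = 0.0769, 0.0699, 0.085 and 0.0981), nor without scaling (0.18) or with centred arrays (1.29), and it was -0.93 with the common median.

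How far a difference lay from 0 depended on how the arrays were scaled. The median of all tested genes was -1.39 on the quantile-normalized values, -1.97 without scaling, -3.08 with a common median set for all arrays, -0.36 with cyclic loess and -0.86 when each array was centred on probes that all 6 arrays detected. Of the 24 called members, 15 were called in the same direction under all 5 scalings, 13 lower and 2 higher. The 2 were Pfdn1, with differences from 1.33 to 4.55, and Dnajc27, from 3.90 to 6.18. The matching share of all tested genes is not given here, so the 15 are not read as a trait of the members. All 6 lower Cct genes were among the 13, with Cct5 from -7.35 to -4.89, Cct3 from -7.74 to -4.98 and Cct2 from -8.13 to -4.57, and so were Dnajb11 (-8.01 to -4.64), Dnajb1 (-6.07 to -2.22) and Dnajb6 (highest -2.83). Of the other higher members, Dnajb4 (0.14) and Dnajc8 (1.10) were not called and Dnajc1 (-0.94) turned negative with the common median, and without scaling Dnajb4 and Dnajc1 were not called (1.24 and 0.17). Of the lower members, Bag5, Hspb6, Dnajc14 and Dnajc5b lost their calls with centred arrays and Dnajc7 and Dnajc15 with cyclic loess. With the common median, under which the median of all genes was also lowest, every member not called on the quantile-normalized values except Dnajc5 was called lower.

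**Figure D5:**
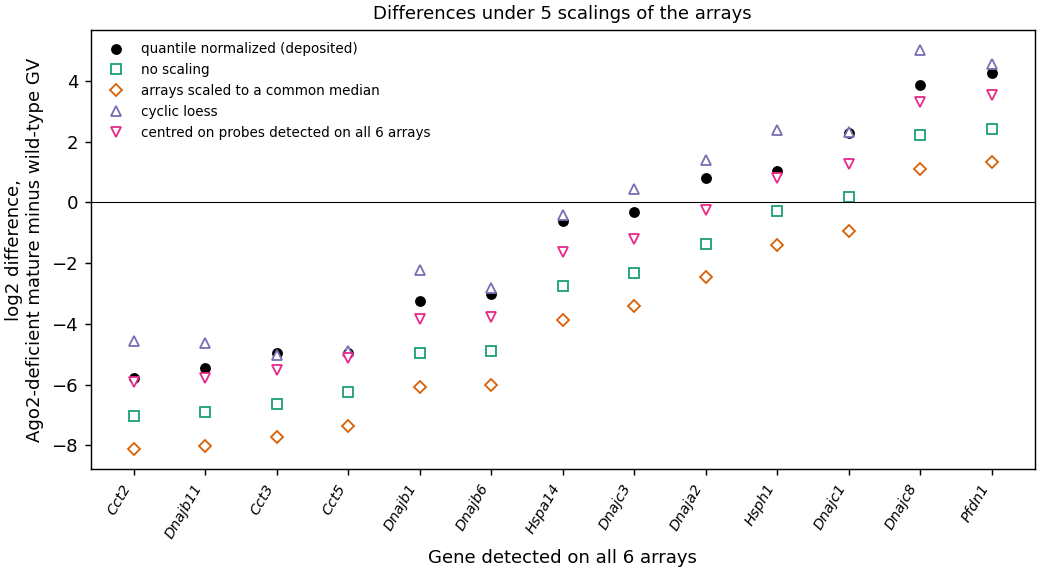
Log2 difference, mutant mean less GV mean (vertical axis), of the 13 members detected on all 6 arrays under 5 scalings of the arrays; filled circles are the deposited quantile-normalized values. Cct2, Cct3, Cct5, Dnajb1, Dnajb6, Dnajb11 and the uncalled Hspa14 lie below 0 and Dnajc8 and Pfdn1 above 0 under each, while Dnajc3, Dnaja2, Hsph1 and Dnajc1 cross it.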

How the data were processed

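RNA of single mouse oocytes was amplified, labelled with digoxigenin and hybridized by the authors to Applied Biosystems V2.0 mouse arrays read by chemiluminescence. Intensity values as deposited were unscaled between arrays, and each came with a deposited score of signal over noise and a flag. The deposited log2 values had been quantile normalized by the authors over the 6 arrays, and the table of the whole series repeated them with 2675 cells empty, used in 1 alternative. The scanner software was not given in sources used here. Probes were named by the platform annotation (14411 with 1 symbol, 247 with several, 18354 with none), and all 74 member probes were found in the gene table by gene identifier with 0 symbols changed.

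Probes detected on all 3 arrays of a group (8018) entered 1 limma model (version 3.58.1, R 4.3.3, lmFit and eBayes) with Benjamini-Hochberg adjustment over all of them, and the brightest tested probe stood for its gene. The fit was also run on simulated data in which few of the probes were changed. In these data 62.2% of tested genes were called, so that run does not check the calls given here. No block was used. Precision is limited by the number of arrays. Array values are given, in each family, for at most 4 called members with the largest differences, at most 2 uncalled ones of highest mean, and main chaperones from a set list. Array values of Dnajb4, Dnajc1 and Dnajc9 and the names of genes detected on no array or in 1 oocyte of a group were added after their values were seen. Of the companion list the 4 largest called differences in each direction are named. Members and lists were chosen with earlier results of these data known. Figures used Python 3.11.15 and matplotlib 3.10.9.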

Additional observations from a re-analysis of the deposited data

How the results depend on the processing

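Alternatives changed the scaling, filter, detection limit, flagged spots, variance model, array weights, choice of probe, fold limit, replicate block and each array in turn. The 5 members called higher were 2 under a common median for all arrays and 3 without scaling, and the 19 lower were 31 with a common median and 6 among probes detected on all 6 arrays, where fewer genes are tested. Counts over all 7915 tested genes moved the same way. Their 1378 higher calls became 311 with the common median and 609 without scaling, and their 3543 lower calls became 6223 with the common median. Among probes detected on all 6 arrays 543 of 2497 genes were lower. Leaving out 1 array gave 4 to 5 higher and 16 to 22 lower. With the replicate block 5 were higher and 20 lower, and Dnajc18 was called (-1.54, adjusted p = 0.0331), the 1 member whose call the block changed. Arrays of equal number did not deviate together (r = -0.0485, 0.0277 and -0.0343), and the numbers were not used as pairs in the main fit. With 3 arrays in a group, such correlations cannot exclude that arrays of equal number shared a day or batch. Of the companion list, 7 were called higher and 10 lower. Higher ones were 1 under the common median, 3 without scaling, 3 with centring on probes detected on all 6 arrays, 4 with no filter on dim probes and 4 with ordinary t-statistics, and lower ones were 23, 16, 7, 6 and 8. Among probes detected on all 6 arrays 3 were lower, and without 1 array 4 to 8 were higher and 5 to 12 lower. Members that kept their call under every scaling, filter that tested them, variance model and array left out numbered 14: Cct2, Cct3, Cct4, Cct5, Cct8, Pfdn1, Pfdn2, Dnajb1, Dnajb2, Dnajb6, Dnajb11, Dnajc27, Hspa4l and Bag1. The matching share of all tested genes is not given here, so this number is not read as a trait of the members.

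Signs turned in these cases, and the cause was not tested. With arrays scaled to a common median Dnaja2 was -2.47, Dnajc1 -0.94, Dnajc5 -1.09, Hsph1 -1.40 and Pdia4 -0.93. Without scaling Dnaja2 was -1.37 and Hsph1 -0.29. With cyclic loess Cct6a was 0.69, Dnajc18 0.13, Dnajc24 0.49, Dnajc3 0.43, Dnajc4 0.59, Hspbap1 0.33, Hspa5 0.50 and Hspd1 0.48. With centring on probes detected on all 6 arrays Dnaja2 was -0.26, Dnajc24 0.71 and Hspd1 0.52. Dnajc5 was -1.01 as the mean of its probes and -0.83 to 1.39 over the arrays left out in turn, Hspd1 -1.02 to 0.044, and Dnajc3 0.15 without Ago2-deficient replicate 1. Signal over background limits what can be said of members near the detection limit in the mutant oocytes.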
